A study of Mus musculus with 8 samples.

Results

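Tensins are adaptor proteins that sit between integrins, the cell's receptors for extracellular matrix, and the actin cytoskeleton. The genes followed here were 10 scaffold genes of focal adhesions, the sites at which cells hold on to matrix: the tensins Tns1, Tns3 and Tns4, the talins Tln1 and Tln2, the actin linkers Vcl and Zyx, and Ilk, Ptk2 and Pxn, which encode signalling scaffolds. They were found by gene symbol among 24063 genes, and all 10 were present, with 17 RefSeq transcripts between them. The group was chosen from the difference in Tns1 between doxycycline and vehicle libraries of this same series, and its other genes were added with those results known. The differences between treatments are therefore given as a description of the libraries, and no test of them is offered as support.

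At a focal adhesion, talin binds the tail of the integrin beta subunit and switches the receptor on, and vinculin then joins talin to actin under load. Tensins bind the same integrin tails and are known for mature, matrix-facing adhesions. Loss of Tns1 in mice is known to give cystic kidneys.

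RNA was sequenced from tubuloids, which are epithelial tubes and spheres that form when fragments of young mouse kidney are embedded in Matrigel, a basement membrane gel. All 8 cultures carried Pkd2fl/fl, Pax8rtTA, TetOCre and mTmG. In this system the Pax8 promoter drives a doxycycline-dependent activator in renal epithelium, the activator turns on Cre, Cre removes the floxed part of Pkd2, and mTmG marks recombined cells by a colour change. There were 4 cultures given doxycycline (DOX) and 4 given dimethyl sulfoxide (DMSO) as vehicle, from culture day 3 for 3 days, with RNA taken on day 7. The labels place the kidneys at postnatal day 7 to 10, while the study's methods state a younger range that shares only day 7 with the labels. The study also describes non-epithelial structures that did not respond to doxycycline, and cells of the unrecombined colour and remaining Pkd2 protein after treatment, so DOX libraries may mix recombined and unrecombined cells. The labels do not say which cultures came from separate animals, so the spread between libraries may be partly technical.

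Summed transcript counts ran from 63922677 to 102716313 per library. DMSO 20 and DOX 19 stood apart, with counts for 13243 and 13599 genes against 17054 to 17903 in the other 6 libraries, and values without this pair are given beside each of the 10 genes. DMSO 15 and DOX 21 were male by Xist and Y-linked reads. Pkd2, the targeted gene, had 4813 to 7538 normalised counts in DMSO and 4136 to 5952 in DOX, so the groups overlapped; counts over whole transcripts do not separate the floxed exons. A normalised count is the summed read count divided by the library's size factor. All 8 renal epithelial markers examined (among them Pax8, Pax2, Cdh1, Epcam, Krt8, Krt18 and Cdh16) had counts in every library, with summed TPM (a level corrected for transcript length and library depth) of 472 to 2128 in DMSO and 614 to 1424 in DOX.

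The files list Tns1 (chr1:73910232-74124548, mm10) as 2 transcripts, NM_027884 of 9966 bases and NM_001289895 of 9905 bases. In the GENCODE annotation of the same assembly, NM_027884 holds 2 short coding exons, 63 bases in all, that NM_001289895 lacks. Both lie on the minus strand, exon 23 at chr1:73936332-73936355 and exon 24 at chr1:73935898-73935936. They are printed because they are the whole exons that only one of the Tns1 transcripts holds (the lengths differ by slightly less than these exons hold, so a base or so differs elsewhere), and reads over them or across their junctions would be needed to tell the transcripts apart.
Tns1 exon 23: ttgccagaagactgatccagccag
Tns1 exon 24: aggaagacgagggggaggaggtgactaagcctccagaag

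The counts did not separate the transcripts. NM_027884 had 4832, 5011, 6085 and 4180 reads in DMSO 3, 5, 15 and 20, and NM_001289895 had 4829, 5010, 6084 and 4180. In DOX 9, 12, 19 and 21 both transcripts had the same counts, 3304, 4298, 2527 and 2512. The transcripts thus differed by at most 3 reads in any library, and NM_027884 held 50 to 50.0155% of the Tns1 total throughout. Reads from shared exons appear to have been counted for each transcript, so the Tns1 sum may hold most reads 2 times, and whether either form changed with DOX is not detectable from these counts.

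Tns1, which encodes an actin-binding tensin, was lower in every DOX library than in every DMSO library. Its normalised counts were 8990, 10099, 12209 and 10704 in DMSO 3, 5, 15 and 20. In DOX 9, 12, 19 and 21 they were 5610, 6111, 5701 and 5275. The highest DOX library thus lay below the lowest DMSO library, and the DOX libraries were close together, with a coefficient of variation of 6.06% against 12.8% in DMSO. The fitted level in DOX was 0.540 times that in DMSO (95% interval 0.442 to 0.661; log2 fold change -0.89, SE 0.148). Without DMSO 20 and DOX 19 the group means were 10432 and 5665. This is the difference by which the gene was picked. In bulk RNA such as this, fewer Tns1-expressing cells and less Tns1 RNA per cell cannot be told apart.

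**Figure D1:**
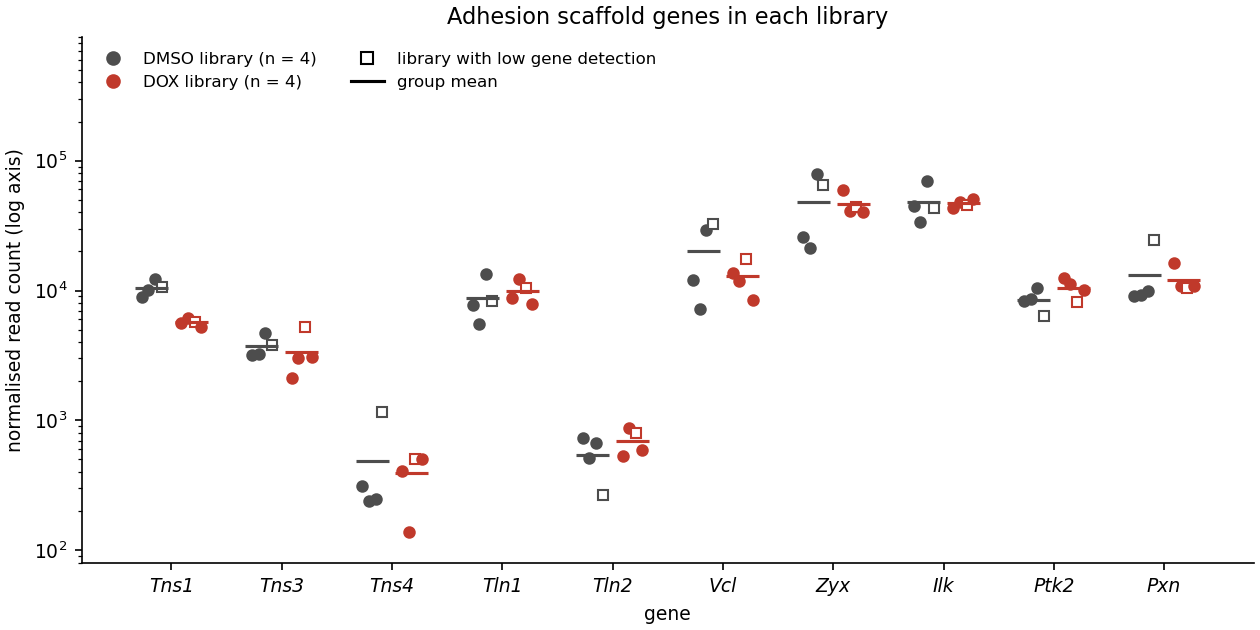
Normalised read counts (log axis) of the 10 adhesion genes in each library, DMSO in grey and DOX in red; bars are group means (n = 4) and open squares are DMSO 20 and DOX 19, the libraries with low gene detection. The Tns1 groups do not overlap (8990 to 12209 in DMSO, 5275 to 6111 in DOX), while the groups of each other gene do.

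Markers of other cell types were set beside Tns1. The 8 stromal markers summed to 197 to 2540 TPM in DMSO and 292 to 681 in DOX, with Dcn and Lum at 0 in at least 1 library. The 8 smooth muscle and pericyte markers, all with counts in every library, summed to 247 to 3461 TPM in DMSO and 697 to 806 in DOX. Stromal and smooth muscle sums thus overlapped between groups. The 6 endothelial markers summed to 52.3 to 112 TPM in DMSO and 64.6 to 194 in DOX, with Pecam1, Cdh5, Kdr and Tek at 0 in at least 1 library and never above 0.698 TPM. The 4 podocyte markers summed to 15.1 to 47.9 TPM in DMSO and 14.3 to 191 in DOX.

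The sum of the 6 macrophage and leukocyte markers did not overlap between groups, although each single marker did and DESeq2 called 0 of the 6. They summed to 15.9, 29.4, 17.6 and 26 TPM in DMSO 3, 5, 15 and 20 and to 12.2, 11.6, 0.0068 and 4.31 TPM in DOX 9, 12, 19 and 21. Each of the 6 was at 0 in at least 1 library. Of the defining members, Adgre1 was at 0 in 7 libraries and reached 0.0195 TPM in DMSO 15, and Csf1r never passed 0.431 TPM. Ptprc, Cd68 and Lyz2 made up most of the sums except in DOX 19, where all 3 were at 0, and which of them led differed from library to library. Over the 8 libraries Tns1 and this sum, both separated by group, had r = 0.68 and rho = 0.79, which include the difference by which Tns1 was chosen and are given with no test. Leaving out DOX 19 and DOX 21, the farthest on the marker axis, gave r = 0.76, and leaving out DMSO 20 and DOX 19 gave r = 0.78. With group means subtracted r was 0.10 (n = 8, given as a description). DOX 19 had nearly no marker signal and 5701 Tns1 counts, and DOX 9 had the most of the DOX libraries and 5610. The part of these cells in the Tns1 difference was not tested.

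Over all 8 libraries the other tensins did not share the pattern. Tns3 (chr11:8431652-8664758), a widely expressed tensin of similar build to Tns1, had normalised counts of 3164, 3261, 4736 and 3825 in DMSO 3, 5, 15 and 20. In DOX 9, 12, 19 and 21 it had 2122, 3048, 5221 and 3050. The groups overlapped, and the highest and the lowest library were both DOX (log2 fold change -0.16, SE 0.331). The Tns3 means without DMSO 20 and DOX 19 were 3720 in DMSO and 2740 in DOX. The overlap rested on DOX 19: the other DOX libraries had at most 3050 counts, against at least 3164 in DMSO. Without DOX 19 the log2 fold change was -0.45 (SE 0.276), and DESeq2 did not call Tns3.

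Tns4 (chr11:99065678-99089306) encodes a short tensin that lacks the actin-binding front of the family. Its normalised counts were 312, 240, 250 and 1158 in DMSO 3, 5, 15 and 20 and 410, 138, 508 and 505 in DOX 9, 12, 19 and 21. A single library, DMSO 20, was the highest of the 8, and a DOX library, DOX 12, was the lowest. The fitted difference was -0.33 on the log2 scale (SE 0.676), and without DMSO 20 it changed sign to 0.54. The Tns4 means without DMSO 20 and DOX 19 were 267 in DMSO and 351 in DOX.

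Tns2 is listed in the files under its older symbol Tenc1 and was not among the 10 genes. It encodes a tensin with a phosphatase-like domain and is known for its part in podocytes. Its normalised counts spanned 1887 to 5341 across DMSO libraries and 3267 to 7664 across DOX libraries (log2 fold change 0.48, SE 0.469), with overlapping groups. DMSO 20 and DOX 19 were the highest library of each group, and without them the Tns2 means were 2927 and 4018.

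Levels of the 4 tensins were compared per transcript length by the TPM of the highest transcript of each gene. On this scale Tns1 had 9.65, 13.8, 13 and 13.8 TPM in DMSO 3, 5, 15 and 20 and 6.78, 8.93, 6.73 and 6.39 TPM in DOX 9, 12, 19 and 21. Tns2 had 8.53, 12.4, 21.2 and 29.1 TPM in the same DMSO libraries and 16.6, 21.6, 38 and 26.9 TPM in the DOX libraries. Tns1 thus made up 22.2 to 35.0% of the tensin TPM in DMSO and 10.6 to 21.0% in DOX. This share and the Tns1 to Tns3 ratios contain the Tns1 values by which the gene was picked, so they add no separate result. Tns2 was the highest tensin in each DOX library, and also in DMSO 15 and DMSO 20. On the same scale the ratio of Tns1 to Tns3 was 0.974 to 1.17 in DMSO and 0.413 to 0.998 in DOX. By normalised counts, where Tns1 is summed over 2 transcripts, it was 2.58 to 3.10 and 1.09 to 2.64. DOX 9 lay inside the DMSO range on either scale, its Tns3 count also being the lowest, and DOX 19 lay lowest.

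**Figure D2:**
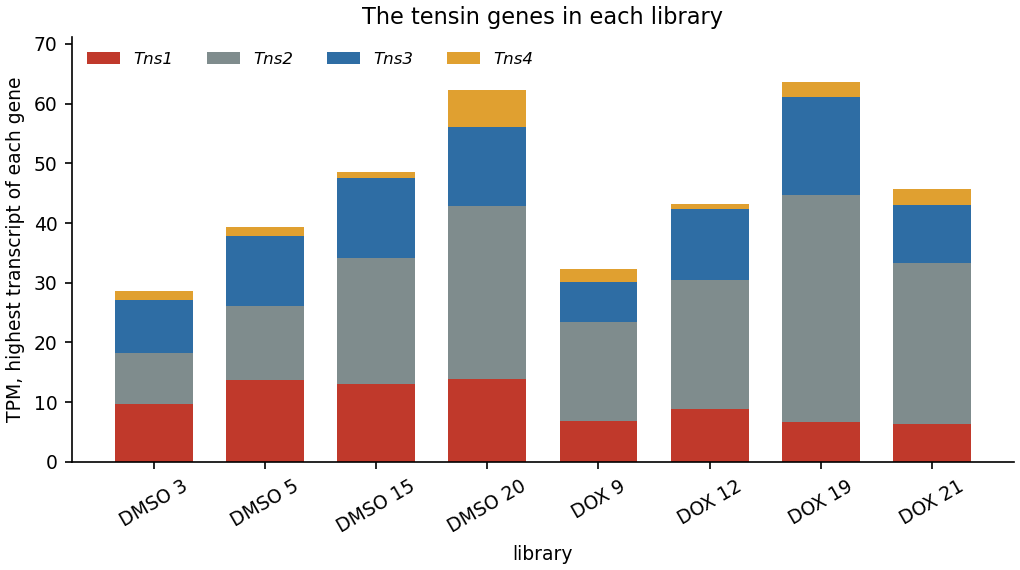
TPM of the highest transcript of Tns1, Tns2 (Tenc1 in the files), Tns3 and Tns4, stacked for each library. The Tns1 share runs from 22.2 to 35.0% of the stack in DMSO and from 10.6 to 21.0% in DOX, while the Tns2 part is largest in DOX 19 (38 TPM). The share contains the Tns1 values by which the gene was picked.

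The talins overlapped between groups. Tln1 (chr4:43531513-43562583), the talin of most tissues, had normalised counts of 7767, 5530, 13488 and 8282 in DMSO 3, 5, 15 and 20 and of 8769, 12303, 10531 and 7843 in DOX 9, 12, 19 and 21. The lowest and the highest library were both DMSO (log2 fold change 0.17, SE 0.329). Without DMSO 20 and DOX 19 the means were 8928 and 9639. Tln2 (chr9:67217085-67634045), the second talin, had normalised counts of 728, 515, 664 and 265 in DMSO and of 527, 869, 799 and 589 in DOX, in the same library order. The low value belonged to DMSO 20, and without DMSO 20 and DOX 19 the means were 636 and 662 (log2 fold change over all libraries 0.36, SE 0.389).

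Vcl and Zyx differed more between cultures of a group than between groups. Vcl (chr14:20929383-21033676) encodes vinculin. It had normalised counts of 11994, 7190, 29138 and 32308 in DMSO 3, 5, 15 and 20 and of 13684, 11912, 17510 and 8410 in DOX 9, 12, 19 and 21. The top DMSO library was 4.49 times the bottom one, and all 4 DOX libraries lay between them. Over the 8 libraries the fitted Vcl difference of -0.65 on the log2 scale (SE 0.517) was the largest of the 9 genes other than Tns1. Its 95% interval, -1.66 to 0.37, included no change. With each library left out in turn it ran from -0.92 to -0.33, and without DMSO 20 the Tns4 difference (0.54) was larger. The Vcl means without DMSO 20 and DOX 19 were 16107 and 11335.

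Zyx (chr6:42349511-42360213) encodes zyxin, a LIM-domain protein recruited to adhesions and stress fibres under tension. Its normalised counts, summed over 4 transcripts, were 25668, 21283, 79630 and 65187 in DMSO and 59148, 41145, 43823 and 39910 in DOX, in the same library order. DMSO 3 and 5 were the lowest libraries and DMSO 15 and 20 the highest, with the DOX libraries between (log2 fold change -0.06, SE 0.471). The sign of the Zyx difference turned without DMSO 15 (0.30), without DMSO 20 (0.12) and without DOX 21 (0.0053). Without DMSO 20 and DOX 19 the Zyx means were 42194 and 46734.

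Ilk (chr7:105736590-105742925) encodes integrin-linked kinase, a pseudokinase that joins integrins to the PINCH and parvin adaptors. Its normalised counts were 44906, 33931, 69120 and 43515 in DMSO 3, 5, 15 and 20 and 43484, 47810, 45664 and 50933 in DOX 9, 12, 19 and 21. The DOX libraries spanned a 1.17-fold range inside a 2.04-fold DMSO range (log2 fold change -0.03, SE 0.257). The 95% interval of the Ilk fold was 0.692 to 1.39. The Ilk means without DMSO 20 and DOX 19 were 49319 and 47409.

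Ptk2 (chr15:73205102-73423820) encodes focal adhesion kinase, the tyrosine kinase that signals from adhesions. It had normalised counts of 8334, 8677, 10385 and 6420 in DMSO and 12584, 11265, 8101 and 10071 in DOX, in the same library order. DOX 9 and 12 lay above all DMSO libraries, whereas DOX 19 lay below 3 of them (log2 fold change 0.31, SE 0.234, 95% interval -0.15 to 0.77). Without DMSO 20 and DOX 19 the Ptk2 means were 9132 and 11307. Its transcripts, unlike those of Tns1, had unequal counts: NM_007982 took 55.1 to 58.5% of the Ptk2 reads in DMSO and 57.3 to 60.5% in DOX, so these shares overlapped too.

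Pxn (chr5:115491970-115555987) encodes paxillin, an adaptor that binds focal adhesion kinase and vinculin. Its normalised counts were 9058, 9241, 9868 and 24437 in DMSO and 16235, 10914, 10494 and 10796 in DOX, in the same library order. DMSO 20 was the highest Pxn library, followed by DOX 9. The fitted difference was -0.12 on the log2 scale (SE 0.407), but without DMSO 20 it was 0.36, and without DMSO 20 and DOX 19 it was 0.45, with means of 9389 and 12648.

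**Figure D3:**
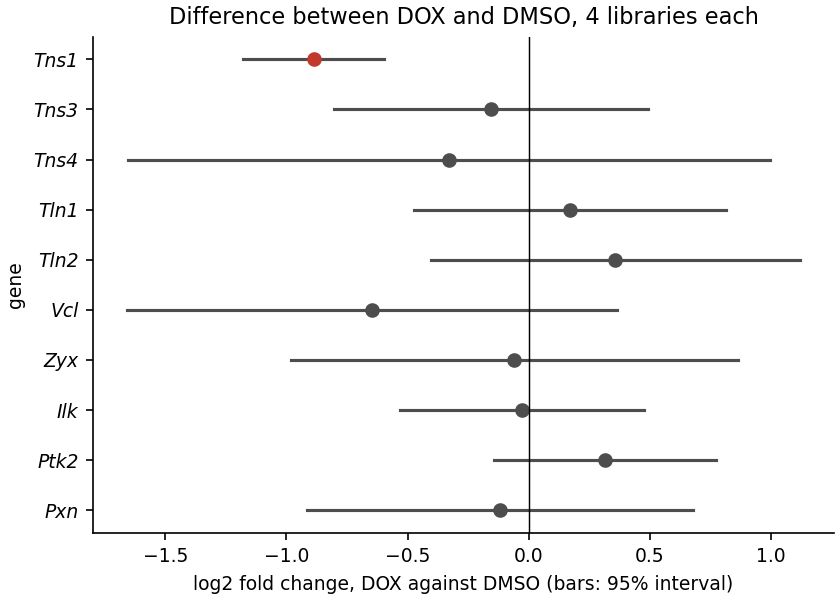
Fitted log2 fold change of DOX against DMSO (points) with 95% intervals (bars) for the 10 genes, 4 libraries in each group; Tns1, the gene by which the group was chosen, is in red. Tns1 lies at -0.89, and the intervals of the other 9 genes include 0.

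Calls were read against all genes. With a fold of 1.5 or more and an adjusted p no higher than 0.05 as the rule, DESeq2 called 25 of 17011 genes (0.147%), 11 of them lower with DOX (0.0647%). Of the 10 adhesion genes it called Tns1, the gene that led to their choice, and nothing is read from that. Of the other 9 genes it called 0, with 0 at an unadjusted p under 0.05, where 4.67% of all genes were. In edgeR, which called 0 genes in all, 0 of the 9 had an unadjusted p under 0.05, against 3.06% of all genes. On the 6 libraries left without DMSO 20 and DOX 19, DESeq2 did not call Tns1 (log2 fold change -0.87, Wald test adjusted p = 0.051). Over the 8 libraries, groups that did not overlap were seen for 1 of the 10 genes, Tns1, and for 2.72% of genes with a mean normalised count of at least 2. Without DMSO 20 and DOX 19, the groups of Tns3 (lower in DOX) and Pxn (higher in DOX) did not overlap either. The share of all genes on those 6 libraries was not taken, so nothing is read from this. The median log2 fold change of the 9 genes was -0.06 (range -0.65 to 0.36), and that of all genes with an adjusted p was -0.07.

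The order of levels among the 10 genes depended on how transcripts were treated. By TPM summed over transcripts, means over the 8 libraries fell in the order Ilk (645), Zyx (429), Pxn (82.7), Vcl (75.9), Ptk2 (57.5), Tln1 (26.5), Tns1 (19.7), Tns3 (11.5), Tns4 (2.26) and Tln2 (1.24). By the sum, the place of Tns1 differed by group, with mean summed TPM of 25.0 ± 3.94 against 23.7 ± 7.06 for Tln1 in DMSO and 14.4 ± 2.31 against 29.2 ± 8.71 in DOX (SD, n = 4). By the highest transcript alone, Tns1 lay below Tln1 in both groups (12.6 against 23.7 TPM in DMSO, 7.21 against 29.2 in DOX). The change of place thus holds only in the summed order. Of the 9 neighbouring pairs in this order, 5 differed at an adjusted p of at most 0.05 (exact two-sided sign-flip permutation tests over libraries, of which 0.0078125 is the smallest p possible). Pxn and Vcl did not differ beyond their spread (mean log2 difference 0.19 ± 0.655, SD, n = 8; exact permutation adjusted p = 0.477). The same was found for Vcl and Ptk2 (0.26 ± 0.927, exact permutation adjusted p = 0.477), for Tln1 and Tns1 (0.44 ± 0.662, exact permutation adjusted p = 0.152) and for Tns4 and Tln2 (0.63 ± 1.28, exact permutation adjusted p = 0.281).

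Since shared reads appear to be counted for each transcript, the highest transcript alone is the fairer level for genes with several. On that scale the order was Ilk (327), Zyx (124), Vcl (75.9), Pxn (41.9), Ptk2 (30.2), Tln1 (26.5), Tns3 (11.5), Tns1 (9.88), Tns4 (2.26) and Tln2 (1.24). Vcl then lay above Pxn in 8 of 8 libraries (log2 difference 0.79 ± 0.654; exact permutation adjusted p = 0.0141). Tns3 and Tns1 did not differ beyond their spread (log2 difference 0.24 ± 0.499; exact permutation adjusted p = 0.242), nor did Ptk2 and Tln1 (0.20 ± 0.408, same adjusted p). The ranks pool both groups, and that of Tns1 and Tns3 turned between them: the highest transcripts had means of 12.6 (Tns1) and 11.8 TPM (Tns3) in DMSO and of 7.21 and 11.2 TPM in DOX. Pairs not separated by the sum were separated on this scale: Tln1 lay above Tns1 by 1.43 on the log2 scale and Vcl above Ptk2 by 1.19, each in 8 of 8 libraries (exact permutation adjusted p = 0.0117 for both). For these pairs p was adjusted over the neighbours in the summed order. The other adjusted p of this paragraph are over the neighbours in the highest-transcript order.

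**Figure D4:**
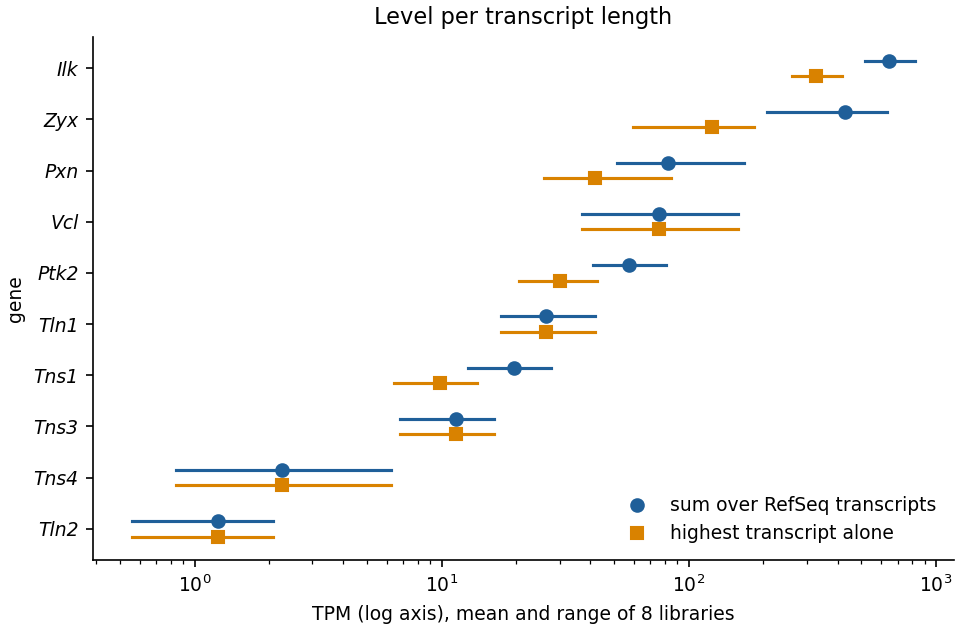
Level of each gene in TPM (log axis) over the 8 libraries, as the sum over RefSeq transcripts (blue circles) and for the highest transcript alone (orange squares); points are means and lines run from the lowest to the highest library. Tns1 lies above Tns3 by the sum (19.7 against 11.5) and below it by the highest transcript (9.88 against 11.5).

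The 10 genes were not shown to move as a unit across cultures. Among 45 pairs of genes, correlated over the log2 normalised counts of 8 libraries, 4 had an exact permutation p under 0.05 and 0 passed at an adjusted p of 0.05. The closest pair was Vcl and Zyx (r = 0.82, exact permutation p = 0.0146, adjusted p = 0.395; rho = 0.88, exact permutation p = 0.00724, adjusted p = 0.326). Leaving out the 2 libraries farthest from the Vcl median gave r = 0.62, and subtracting group means gave r = 0.90. For Tns1 the correlations over the 8 libraries include the difference by which it was chosen, so those with group means subtracted are given instead, as a description over n = 8. They were r = 0.76 with Tln1, 0.71 with Zyx, 0.62 with Vcl, 0.56 with Ilk and 0.42 with Tns3. With Ptk2, Pxn, Tln2 and Tns4 they were 0.27, 0.16, 0.018 and -0.22.

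Vcl and Zyx were high where the summed level of smooth muscle and pericyte markers was high. These 8 markers (Acta2, Tagln, Myh11, Cnn1, Des, Pdgfrb, Rgs5 and Cspg4) summed to 511, 247, 3461 and 1147 TPM in DMSO 3, 5, 15 and 20 and to 717, 806, 742 and 697 TPM in DOX 9, 12, 19 and 21. The contractile markers Acta2 and Tagln carried the spread of this sum, with 1212 and 1708 TPM in DMSO 15. The pericyte markers did not share it: in DMSO 15 Cspg4 was at its lowest of the 8 libraries (9.86 TPM), Rgs5 at its second lowest (49.3 TPM) and Pdgfrb in mid range (163 TPM). Zyx followed the sum with r = 0.89 (exact permutation p = 0.00156, adjusted p = 0.0938; rho = 0.90, exact permutation p = 0.00456, adjusted p = 0.274) and Vcl with r = 0.81 (exact permutation p = 0.00712, adjusted p = 0.142; rho = 0.79, exact permutation p = 0.0279, adjusted p = 0.419), n = 8. Adjustment was over 60 relations between the 10 genes and 6 marker lists, of which 0 passed. Of the 54 relations of genes other than Tns1, 7 had an unadjusted p under 0.05 for r. Without DMSO 5 and DMSO 15, the farthest libraries on the marker axis, r was 0.84 for Zyx and 0.73 for Vcl, and without DMSO 20 and DOX 19 it was 0.89 and 0.92. Ilk also had a high r with these markers (0.91), which fell to -0.21 without DMSO 5 and DMSO 15 and thus rested on them. Its rho was 0.52. Tln1 had r = 0.81 and rho = 0.86 with this sum (exact permutation p = 0.0188 and 0.0107, adjusted p = 0.188 and 0.321). Its r was 0.22 without DMSO 5 and DMSO 15 and 0.88 without DMSO 20 and DOX 19. Tns1 had r = 0.29 with the same sum over the 8 libraries and r = 0.74 with group means subtracted, the latter given as a description. Ilk was also low where the renal epithelial sum was high (r = -0.83, exact permutation p = 0.00508, adjusted p = 0.142; rho = -0.71, exact permutation p = 0.0576, adjusted p = 0.432), and r was -0.88 without DMSO 3 and DMSO 15. Zyx had r = -0.74 with the renal epithelial sum (exact permutation p = 0.0363, adjusted p = 0.272; rho = -0.67, exact permutation p = 0.0831, adjusted p = 0.499), and r was -0.47 without DMSO 3 and DMSO 15. Ilk had r = 0.87 with the stromal sum (exact permutation p = 0.0152, adjusted p = 0.188; rho = 0.48, exact permutation p = 0.243, adjusted p = 0.845), and r was -0.04 without DMSO 5 and DMSO 15. These relations were looked at only after the values by library were seen.

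**Figure D5:**
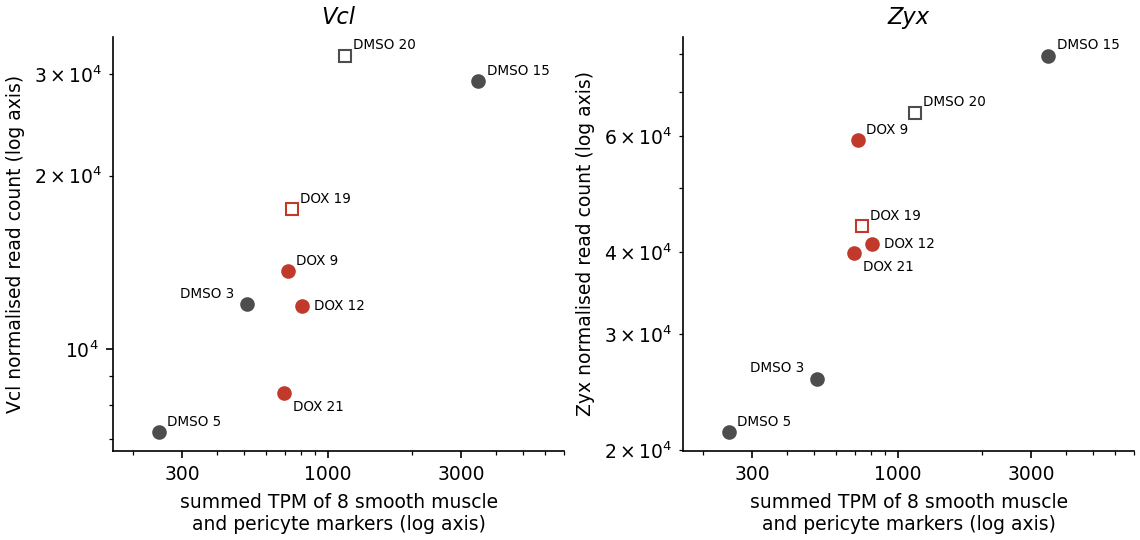
Normalised counts of Vcl (left) and Zyx (right) against the summed TPM of 8 smooth muscle and pericyte markers, both axes logarithmic, a point for each library (DMSO grey, DOX red, open squares for libraries with low gene detection). DMSO 5 lies lowest on both axes (247 TPM), DMSO 15 and DMSO 20 lie at the top, and the DOX libraries lie between 697 and 806 TPM.

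Further genes of the adhesion machinery were examined as 2 lists, 42 adaptors, kinases and actin regulators and 17 integrin subunits. DESeq2 called 0 of the 42 adaptor genes in either direction, with 2 of the 41 it tested at an unadjusted p under 0.05, and edgeR called 0, with 2. Over all genes the shares at such a p were 4.67% and 3.06%, and nothing is read from 2 genes. Their median log2 fold change was -0.01, 22 being lower and 20 higher in the fit. The 2 with small unadjusted p were Kank1 (log2 fold change 0.70, SE 0.288), which encodes a talin-binding protein of the adhesion rim, and Enah (log2 fold change -0.56, SE 0.257), which encodes an actin filament elongator and was named here only once its p was known. Of the partners in the integrin-linked kinase complex, Parva had 6928 to 25460 normalised counts in DMSO and 9198 to 14373 in DOX, and Lims1 had 18197 to 38188 in DMSO and 21672 to 34793 in DOX. Fermt2, which encodes the integrin activator kindlin-2, had 5314 to 14140 in DMSO and 6585 to 10915 in DOX. Bcar1, which encodes the p130Cas scaffold, had 8973 to 14436 in DMSO and 11329 to 15585 in DOX. All of these ranges overlapped between groups. Leaving out DMSO 20 and DOX 19, the means in DMSO and DOX were 14640 and 12029 for Parva, 26507 and 30747 for Lims1, 8938 and 8754 for Fermt2, and 11072 and 11965 for Bcar1. With the same limit of a mean of at least 100, the largest fitted differences of the list besides Kank1 were Lims2 (-2.10, SE 1.96), at 0 in at least 1 library of each group and without a DESeq2 p, and Arhgef6 (0.75, SE 0.432).

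Of the 17 integrin subunits DESeq2 called 0 in either direction, with 0 at an unadjusted p under 0.05, and edgeR called 0, with 0. Over all genes 0.147% were called and 4.67% (DESeq2) or 3.06% (edgeR) had such a p, so 0 of 17 does not set the list apart. Their median log2 fold change was -0.09. Itgb1, the beta subunit shared by most matrix receptors, had 49441 to 152691 normalised counts in DMSO and 66528 to 111262 in DOX. Among subunits with a mean normalised count of at least 100, the largest fitted differences were those of Itga11 (-1.32, SE 1.23), Itgb8 (-1.25, SE 0.787) and Itga8 (0.94, SE 0.563), a subunit known for its part in kidney development. Leaving out DMSO 20 and DOX 19, the means in DMSO and DOX were 102420 and 102355 for Itgb1, 2350 and 758 for Itga11, and 281 and 240 for Itgb8. Itga8 had 6141 to 37623 normalised counts in DMSO and 20945 to 46364 in DOX. Its call depended on a single library: without DMSO 20 DESeq2 called it (log2 fold change 1.68, adjusted p = 0.011), and likewise on the 6 libraries without DMSO 20 and DOX 19 (log2 fold change 1.74, adjusted p = 0.0182).

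Across the transcriptome, likeness to Tns1 was measured as the Pearson correlation of log2 normalised counts over the 8 libraries, among 13247 other genes with a mean of at least 100. Among the 5 closest were Plscr2 (r = 0.93, rho = 0.69), Fhod3 (r = 0.93, rho = 0.86), Fasn (r = 0.90, rho = 0.95) and Tubb2a (r = 0.89, rho = 0.90). This likeness includes the difference between groups by which Tns1 was chosen, and each of these genes was lower in all DOX than in all DMSO libraries, for example Fasn with 4961 to 8429 normalised counts in DMSO and 3009 to 4561 in DOX. With group means subtracted, the closest were Myo9b (r = 0.93, rho = 0.90), Mical2 (r = 0.92, rho = 0.90), Trak1 (r = 0.91, rho = 0.93), Eno3 (r = 0.91, rho = 0.95) and Siglecg (r = 0.90, rho = 0.86). The lists had no gene in common. These are the highest of many values over few libraries, and no p is attached to them.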

How the data were processed

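Libraries were poly-A selected SMART-Seq v4 preparations sequenced as paired ends on 2 flow cell lanes, 4 libraries to a lane; the labels do not tie libraries to lanes, so lanes were not examined. The authors aligned the reads with STAR on mm10 and deposited, for each RefSeq transcript, a raw read count, an FPKM value (reads relative to transcript length and depth) and a TPM value (the same, brought to a fixed total in every library); the submitters' notes also name featureCounts, and versions and settings are not given in the sources used here. Counts were used for the DOX against DMSO fit, TPM for levels and markers, and FPKM only to read off transcript lengths. Counts and TPM were summed by gene symbol; how reads shared by paralogs or isoforms were assigned is not stated. Lists were matched by symbol or, for Tns2 and Adgre1, by RefSeq accession.

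DOX was compared with DMSO over all genes by the Wald test of DESeq2 1.42.0 (R 4.3.3; no covariate, independent filtering at alpha 0.1, Benjamini-Hochberg adjustment), with the quasi-likelihood test of edgeR 4.0.16 beside it. The study names DESeq2, this adjustment and this alpha; the Wald test, the lack of covariates and the filtering were chosen here. Library numbers are not shared between groups, so the comparison is unpaired. Levels were compared as log2(TPM + 0.1) within libraries, and log2(normalised count + 1) was used for correlations. Fits and permutation tests were tested on simulated data. No pair of the 8 libraries agreed within counting error (chi-square over its degrees of freedom of at least 410). Gene coordinates are RefSeq on GRCm38.p6, the assembly of mm10, and exon sequences are GENCODE M21 on the same assembly.

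The genes, the lists and the rule for named genes were chosen with earlier results of these data known. Genes named were the 10 adhesion genes, Pkd2, partners chosen by name (among them Tns2, Bcar1, Itgb1, Parva, Lims1 and Fermt2), called genes and the 3 largest differences of each list (mean normalised count of at least 100), and the 5 genes most like Tns1 by each measure. Some genes that this rule names are not reported here. Protein sequences of the tensins were not used here. Alternatives were edgeR, TMM size factors, 2 handlings of low counts, 1 transcript per gene, sex as a covariate, another pseudocount, and leaving out libraries.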

Additional observations from a re-analysis of the deposited data

Results flagged for a closer look

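Single libraries were compared with the other 3 of their group by Dixon's ratio, the distance from an extreme library to its neighbour divided by the range of the group, at the 95% critical value for 4 samples. This was examined in 34 groups of 4 values (the 10 adhesion genes, 6 marker sums and the Tns1 to Tns3 ratio, in DMSO and DOX), of which 4 passed, where chance gives about 1 in 20, or 1.7; the values share libraries and are not independent.

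DMSO 20 was far above the other DMSO libraries for Tns4 (log2 normalised count 10.2 against 7.91 to 8.29; gap 0.834) and for Pxn (14.6 against 13.1 to 13.3; gap 0.914). It is a library with low gene detection, and the part of this in its Tns4 and Pxn values was not tested. DOX 12 was far below the other DOX libraries for Tns4 (7.12 against 8.68 to 8.99; gap 0.836). DOX 9 was above the other DOX libraries for Pxn (14.0 against 13.4 at most; gap 0.910).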

How the results depend on the processing

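The Tns1 difference stayed negative in all 15 alternatives of the fit, within the spread between replicates of the reported value (from -0.95 without DMSO 3 to -0.80 without DMSO 15). Tns1 was picked by this difference and its groups do not overlap, so its sign could hardly turn and this adds no support. Tns1 was not called by edgeR, nor by DESeq2 without DMSO 20 and DOX 19. The other 9 adhesion genes had 0 calls in each of the 15. The number of called genes, 25, was 0 in edgeR, 16 with at least 10 counts in every library, 51 without DMSO 20 and DOX 19, 43 with sex as a covariate, and 14 (without DMSO 3) to 75 (without DMSO 15) when each library was left out in turn, with 48 without DMSO 20 and 38 without DOX 21. Calls among the 59 further adhesion genes and integrins, 0 in the main comparison, were 1 without DMSO 20 and DOX 19 and 0 to 1 with each library left out; the gene was Itga8. The signs of Zyx, Ilk, Tns4, Pxn and Tns3 turned in 5, 3, 2, 2 and 1 of the 15 alternatives, and those of Tln1, Tln2, Vcl and Ptk2 in 0. The 5 level pairs that differed became 0 without DMSO 20 and DOX 19, where 6 libraries allow no p under 0.03125, and 3 to 6 with each library left out (3 without DMSO 3, DMSO 5, DMSO 15, DOX 9 or DOX 21). With the highest transcript in place of the sum, Pxn against Vcl reversed (-0.79) and Tns1 against Tns3 reversed (-0.24), as construction of the sum would give; ranking neighbours on that scale, an alternative chosen after seeing the data, gave 6 pairs. On the same scale Tln1 against Tns1 (1.43) and Vcl against Ptk2 (1.19) came to differ, and Ptk2 against Tln1 (0.20) no longer did. Vcl against Ptk2 reversed without DMSO 20 and DOX 19 (-0.096). The cause of the other changes was not tested. The share of NM_027884 in Tns1 counts differed between DOX and DMSO by -0.0062 percentage points, and by -0.0082 to -0.0030 with each library left out. A filter on low TPM was not run, since the 10 genes were set by name. Protein comparison of the tensins was not run. Tns4 and Tln2 rest on the fewest counts (138 to 1158 and 265 to 869 normalised counts).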
